A study of Homo sapiens with 6 samples.

Results

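Wnt genes were examined in U251, an established human glioblastoma cell line, after stable lentiviral overexpression of PD-L1, an immune checkpoint ligand encoded by CD274. The genes were chosen by name: every protein-coding gene named WNT, FZD, SFRP or DKK with a number, plus LRP5, LRP6, ROR2, LGR4, AXIN1, AXIN2, NKD1, NKD2, RNF43, ZNRF3, LEF1, TCF7, TCF7L1 and TCF7L2. This gave 51 genes of the 57773 Ensembl genes in the count table, and each matched 1 Ensembl ID. Poly-A RNA was sequenced from 3 dishes of U251 cells with the PD-L1 lentivirus and from 3 dishes of U251 cells with the vector-only lentivirus. Both are stable lines at passage 5 to 10, grown in DMEM with 10% fetal bovine serum and harvested 12 h after a passage. As far as the labels say, each group is a single stably transduced line, and p-values therefore describe variation among its dishes rather than among independent transductions.

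Wnt ligands are secreted, lipid-modified glycoproteins that bind Frizzled receptors at the cell surface. With the co-receptors LRP5 or LRP6, they halt the destruction of beta-catenin, which then acts in the nucleus with TCF and LEF factors. Other branches run through ROR2, planar cell polarity proteins and calcium. SFRP proteins and DKK1 are secreted antagonists, while AXIN2, NKD1, RNF43 and ZNRF3 are induced by the pathway and dampen it. In glioblastoma, Wnt signalling is known for its part in stem-like and invasive behaviour.

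Total counts per dish ranged from 15678989 to 22270509. CD274 had 1307, 1354 and 1232 CPM (counts relative to the total of the dish, scaled by TMM) in PD-L1 dishes 1 to 3, against 1.56, 3.47 and 2.20 CPM in Vector dishes 1 to 3. The groups were thus far apart in the gene that was introduced. PD-L1 dish 3 stood apart from the other dishes of its group, where the chi-square statistic of the counts, divided by its degrees of freedom, was 16.1 against dish 1 and 15.02 against dish 2, while dishes 1 and 2 gave 3.04. Pairs of Vector dishes gave 5.27 to 10.04. U251 identity genes fixed as a list (VIM, NES, SOX2, GFAP and others) were all detected, and 8 of 10 fell. Their summed level was 555 to 704 CPM in PD-L1 dishes and 1022 to 1211 CPM in Vector dishes, and GFAP, the astrocyte filament protein, was low at 1.70 ± 0.22 CPM in PD-L1 dishes and 3.18 ± 0.56 CPM in Vector dishes (SD, n = 3 each). The part of this shift in the results below was not tested. Of the markers of other cell types, none was at 0 in all dishes, and PTPRC, CD3E and EPCAM averaged at most 0.420 CPM in either group. Of those lists, 0 of 2 tested lymphocyte and myeloid genes changed (3.20 to 3.37 CPM summed in PD-L1 dishes, 3.42 to 5.16 in Vector dishes). The endothelial list summed to 3.02 to 3.90 CPM in PD-L1 dishes and 4.78 to 5.91 CPM in Vector dishes, with TEK and KDR lower, while CDH5, the third tested gene, averaged 2.11 CPM in PD-L1 dishes and 1.302 CPM in Vector dishes and did not pass (adjusted p = 0.151, edgeR). Neuronal and oligodendrocyte genes summed to 14.9 to 17.4 CPM in PD-L1 dishes and 17.8 to 20.3 CPM in Vector dishes, with MBP lower. The epithelial list summed to 55.6 to 92.0 CPM in PD-L1 dishes and 146 to 199 CPM in Vector dishes, with KRT14 lower. In bulk RNA, fewer cells of a type and less RNA per cell cannot be told apart.

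The antagonist SFRP1, the Dickkopf gene DKK3, the ligands WNT5B and WNT7B and the receptors FZD1 and FZD8 were lower in PD-L1 cells. So were the R-spondin receptor LGR4 and the factor TCF7L1, while the receptor FZD10 alone was higher. The 5 feedback genes of the pathway did not pass the test. Of the 51 genes, 38 passed the low-count filter and were tested, and 9 of them passed a false discovery rate (FDR) of 0.05 in edgeR's quasi-likelihood test with Benjamini-Hochberg adjustment over all genes. That is 23.7% of the tested Wnt genes, beside 8.75% of all 15818 tested genes. By direction, 8 were lower, against a background of 7.20%, and 1 was higher, against 1.55%. The median log2 fold change over the 38 genes was -0.0046, beside 0.02 over all tested genes, and 0.03 with upper-quartile scaling, beside 0.05 over all genes. The dishes of the groups did not overlap for 12 tested Wnt genes with PD-L1 below (15.5% of all tested genes) and for 2 with PD-L1 above (12.1%). Leaving out PD-L1 dish 1 or Vector dish 1 gave 4 lower Wnt genes each, or 10.5% of the tested Wnt genes, beside 3.98% and 3.37% of all genes. Without PD-L1 dish 2 there were 3, or 7.89% beside 4.61%. Without PD-L1 dish 3 there were 10 lower and 1 higher, or 28.9% beside 21.6% of all genes. A correction for gene GC content and length gave 5 lower and 2 higher, or 18.4% beside 13.3%. In percentage points, the distance from the background was smaller in each of these fits than with all dishes and no correction. It was smallest without PD-L1 dish 2.

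**Figure D1:**
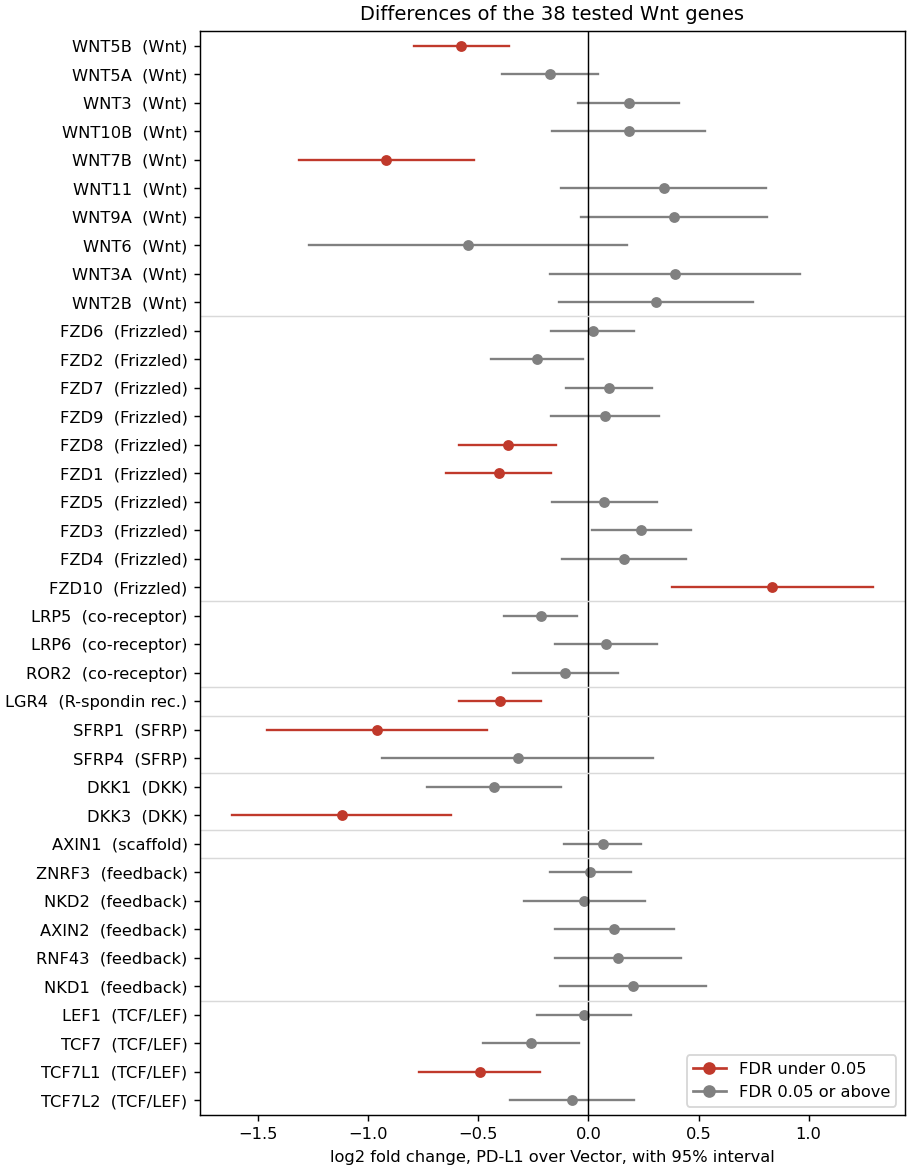
Log2 fold changes (PD-L1 over Vector) of the 38 tested Wnt genes with 95% intervals, grouped by role. Red marks the 9 genes with an FDR under 0.05: 8 lie left of 0, FZD10 lies right of it, and the intervals of all 5 feedback genes span 0.

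Among the 19 Wnt ligand genes, 10 were expressed highly enough to test. Per kb of exon, WNT5B had the highest level, at 5.91 CPM per kb in PD-L1 and 8.81 CPM per kb in Vector dishes. WNT5A followed with 3.87 CPM per kb in PD-L1 dishes and 4.37 in Vector dishes. WNT3 had 3.65 CPM per kb in PD-L1 dishes and 3.22 in Vector dishes, and WNT10B had 2.73 in PD-L1 dishes and 2.39 in Vector dishes. WNT5B and WNT5A, which are close relatives best known for signalling without beta-catenin, had the highest group means, although WNT3 was above WNT5A in PD-L1 dish 3 (16.8% against 14.7% of the ligand signal per kb). WNT5B made up 25.3, 28.1 and 27.6% of all Wnt ligand signal per kb in PD-L1 dishes 1 to 3, against 32.4, 38.3 and 34.1% in Vector dishes 1 to 3.

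WNT5B (ENSG00000111186) had 21.9, 26.6 and 27.9 CPM in PD-L1 dishes, against 36.3, 39.8 and 37.7 CPM in Vector dishes. Every PD-L1 dish lay below every Vector dish. The log2 fold change was -0.58 ± 0.10 (SE), or 1.49-fold lower, with an adjusted p of 0.00295 in edgeR's quasi-likelihood test. WNT7B (ENSG00000188064), a ligand that can signal through beta-catenin and is known for its role in brain vessel growth, had 5.36, 5.48 and 9.57 CPM in PD-L1 dishes, against 13.7, 12.5 and 12.4 CPM in Vector dishes. PD-L1 dish 3 was the highest of its group but still below the Vector dishes. Its log2 fold change was -0.92 ± 0.19, 1.89-fold lower (adjusted p = 0.00769, edgeR), and -1.25 without PD-L1 dish 3. WNT5B and WNT7B were the only Wnt genes called lower in all 20 alternative analyses.

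WNT5A (ENSG00000114251) had 30.3, 30.0 and 25.6 CPM in PD-L1 dishes and 33.3, 28.6 and 35.0 CPM in Vector dishes. The groups overlapped, and the log2 fold change of -0.17 (95% interval -0.39 to 0.05) did not pass (adjusted p = 0.326, edgeR). WNT3, a ligand of the beta-catenin branch, differed by 0.18 on the log2 scale (adjusted p = 0.324, edgeR). WNT10B gave 0.18 with an adjusted p of 0.530. For the less abundant WNT3A, WNT9A, WNT11 and WNT2B the values were 0.39, 0.39, 0.34 and 0.31, and for WNT6 it was -0.55, with adjusted p from 0.252 to 0.399 in edgeR. WNT9A had 4.04, 5.11 and 3.80 CPM in PD-L1 dishes, against 3.49, 2.49 and 3.87 CPM in Vector dishes, with overlap. It passed under 1 alternative, the GC and length correction without PD-L1 dish 3 (log2 fold change 0.65, adjusted p = 0.0183, edgeR). The other 9 ligand genes, which include WNT1, WNT2, WNT4 and WNT7A, did not reach the filter.

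Across ligands and antagonists, 13 Wnt genes were left untested for low counts. None of these 13 had more than 12 counts in any dish, and 9 had at least 1 dish with 0. WNT8B was the most abundant of them, with 12, 7 and 8 counts in PD-L1 dishes and 10, 0 and 3 counts in Vector dishes. DKK4 had 0 counts in all dishes but Vector dish 1, which had 1. A count of 3, the limit that a count of 0 allows, corresponds to 0.138 to 0.185 CPM in these dishes and covers counting error only.

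**Figure D2:**
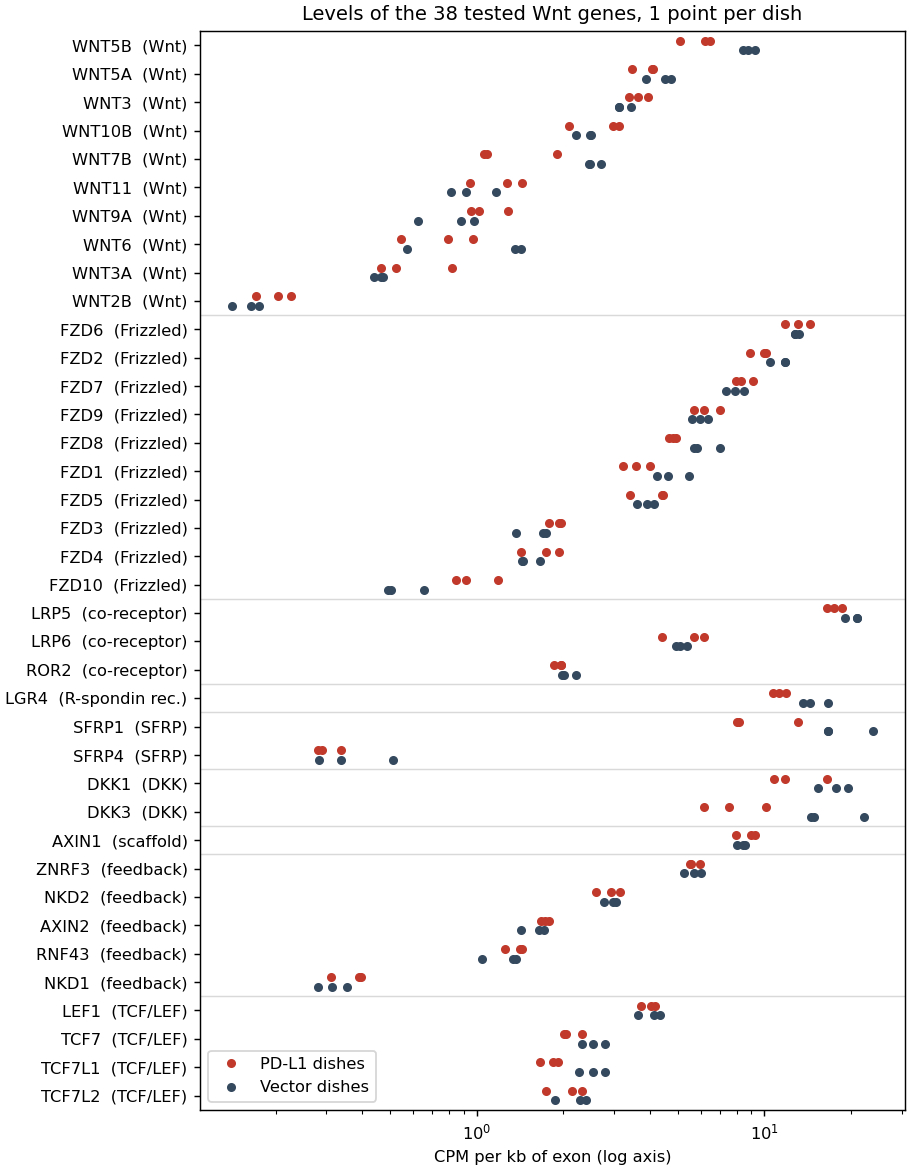
Level of each tested Wnt gene in CPM per kb of exon (log axis), 1 point per dish, PD-L1 dishes in red above Vector dishes in blue. LRP5, DKK1, SFRP1, LGR4 and FZD6 had the highest mean levels per kb, and WNT2B, SFRP4 and NKD1 the lowest per kb.

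Genes that process Wnt ligands were read as a separate list. PORCN, the acyltransferase that lipid-modifies every Wnt for secretion, had 19.3, 19.99 and 29.6 CPM in PD-L1 dishes, against 44.5, 39.5 and 37.9 CPM in Vector dishes. The groups did not overlap, and PD-L1 dish 3 was closest to the Vector dishes. Its log2 fold change came to -0.82 ± 0.14, 1.77-fold lower, with an adjusted p of 0.00279 in edgeR. It passed whichever dish was left out and reached -1.05 without PD-L1 dish 3. PORCN was the 1 gene of 5 tested in this list to change. WLS, the carrier that takes Wnt proteins to the surface, was far more abundant, at 154, 159 and 167 CPM in PD-L1 dishes and 180.5, 164 and 172 CPM in Vector dishes, with overlap, and did not pass (log2 fold change -0.11, adjusted p = 0.399, edgeR).

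All 10 Frizzled receptor genes were expressed, and their summed level per kb lay at 52.8, 57.5 and 53.4 CPM per kb in PD-L1 dishes and at 59.0, 54.9 and 56.1 CPM per kb in Vector dishes. FZD6 was the most abundant, at 13.1 CPM per kb in PD-L1 dishes and 12.9 CPM per kb in Vector dishes. FZD6 had 53.3, 58.7 and 47.7 CPM in PD-L1 dishes and 52.0, 51.9 and 53.7 CPM in Vector dishes, with a log2 fold change of 0.02 and a 95% interval of -0.17 to 0.21. The groups overlapped fully for this receptor.

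FZD1 and FZD8, receptors for ligands of the beta-catenin branch, were modestly lower. FZD1 (ENSG00000157240) had 22.5, 24.98 and 27.8 CPM in PD-L1 dishes, against 38.1, 29.4 and 32.1 CPM in Vector dishes. PD-L1 dish 3 and Vector dish 2 came within 2 CPM of each other, yet the groups did not overlap. The log2 fold change was -0.41 ± 0.11, 1.33-fold lower (adjusted p = 0.0369, edgeR). FZD8 (ENSG00000177283) had 18.8, 19.9 and 19.3 CPM in PD-L1 dishes, against 28.3, 23.5 and 22.8 CPM in Vector dishes. Its fold change was -0.37 ± 0.10 (adjusted p = 0.0407, edgeR), with Vector dish 1 the highest. Both calls were lost without PD-L1 dish 1, PD-L1 dish 2 or Vector dish 1. FZD1 was also lost without Vector dish 3, and FZD8 without Vector dish 2 and with upper-quartile scaling. The smallest fold changes among these fits were -0.30 and -0.26, without Vector dish 1. FZD8 was -0.20 after the GC and length correction (adjusted p = 0.153, edgeR). Its call was also lost with a replicate block, and with the correction combined with that block or without PD-L1 dish 3. Over all 20 alternatives the FZD8 fold change ran from -0.44 to -0.13, and the call held in 9. FZD1 was also lost at a mean of at least 5 CPM, and its call held in 12 of 20.

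FZD10 (ENSG00000111432), a receptor mostly studied in the embryo and in tumours, was the 1 Wnt gene that rose. It had 3.02, 3.88 and 2.78 CPM in PD-L1 dishes, against 1.65, 1.61 and 2.15 CPM in Vector dishes, from counts of 62, 63 and 52 in PD-L1 dishes and 36, 33 and 40 in Vector dishes. Every PD-L1 dish lay above every Vector dish, at a low level in both groups. Fitted over all dishes, its log2 fold change was 0.83 ± 0.21, 1.78-fold higher, with an adjusted p of 0.0264 in edgeR, and 0.0640 in DESeq2. Leaving out any 1 of PD-L1 dishes 1 and 2 and Vector dishes 1 and 2 ended the call, at fold changes of 0.69 to 0.88.

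The remaining Frizzled genes did not pass. FZD3 had 26.6, 27.01 and 24.6 CPM in PD-L1 dishes and 18.9, 24.0 and 23.3 CPM in Vector dishes. FZD2 had 18.9, 21.0 and 21.3 CPM in PD-L1 dishes and 24.96, 24.8 and 22.04 CPM in Vector dishes. In both genes the groups stood apart without overlap, FZD3 above and FZD2 below, but the log2 fold changes of 0.24 and -0.23 gave adjusted p of 0.182 and 0.159 in edgeR. FZD5 had 29.8, 29.7 and 22.8 CPM in PD-L1 dishes and 26.2, 24.3 and 27.8 CPM in Vector dishes. FZD4, FZD5, FZD7 and FZD9 had log2 fold changes of 0.07 to 0.16 with overlapping groups. FZD5 passed under 1 alternative, the GC and length correction without PD-L1 dish 3 (0.23, adjusted p = 0.0434, edgeR).

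The co-receptors did not pass. LRP5, the most abundant Wnt gene per kb, had 102, 115 and 107 CPM in PD-L1 dishes, against 130, 118 and 129 CPM in Vector dishes, without overlap. The log2 fold change of -0.22 (95% interval -0.38 to -0.05) gave an adjusted p of 0.1004 in edgeR over all genes. LRP5 was called without PD-L1 dish 3 (-0.21, adjusted p = 0.0368, edgeR), and with the GC and length correction its fold change was -0.05, with the sign changed when PD-L1 dish 3 was left out as well. LRP6, the related co-receptor, had 58.6, 63.6 and 45.5 CPM in PD-L1 dishes and 50.7, 52.6 and 55.5 CPM in Vector dishes, with PD-L1 dish 3 the lowest. Its fold change was 0.08 (95% interval -0.15 to 0.31). ROR2, a receptor tyrosine kinase for WNT5A, differed by -0.10 on the log2 scale (adjusted p = 0.608, edgeR), with every PD-L1 dish below every Vector dish.

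LGR4 (ENSG00000205213), the receptor through which R-spondins protect Frizzled proteins from removal, fell. It had 75.6, 71.4 and 67.6 CPM in PD-L1 dishes, against 105, 86.5 and 91.6 CPM in Vector dishes. The PD-L1 dishes were close together and below all Vector dishes. This was a log2 fold change of -0.40 ± 0.09, 1.32-fold lower, with an adjusted p of 0.0116 in edgeR. It passed in 17 of 20 alternatives. The exceptions were an FDR of 0.01, a test beyond 1.2-fold and the fit without Vector dish 1 (-0.32, adjusted p = 0.0765, edgeR). Its relatives LGR5 and LGR6 and the R-spondin ligands formed a list in which 0 of 4 tested genes passed the edgeR test, 0 in each direction. LGR5, the intestinal stem cell marker, was the most abundant, with a mean of 7.22 ± 0.97 CPM over the PD-L1 dishes against 6.57 ± 1.41 CPM over the Vector dishes (SD, n = 3 each). LGR6 averaged 2.89 ± 0.88 CPM over the PD-L1 dishes against 3.12 ± 0.72 CPM over the Vector dishes.

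The Dickkopf gene DKK3 and the secreted antagonist SFRP1 had the largest decreases among the tested Wnt genes. Per kb of exon, SFRP1 averaged 9.78 CPM in PD-L1 dishes and 19.0 CPM in Vector dishes, and DKK3 averaged 7.93 CPM in PD-L1 dishes and 17.2 CPM in Vector dishes. Both were above LGR4 (14.9 CPM per kb) in Vector dishes and below it (11.3 CPM per kb) in PD-L1 dishes. SFRP1 accounted for 94.7 to 97.1% of the SFRP signal per kb in PD-L1 dishes and for 97.6 to 97.8% in Vector dishes.

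SFRP1 (ENSG00000104332), which binds Wnt proteins outside the cell and is often silenced in tumours, had 38.3, 38.9 and 62.4 CPM in PD-L1 dishes, against 113, 78.9 and 79.5 CPM in Vector dishes. The groups did not overlap, with PD-L1 dish 3 high in its group and Vector dish 1 high in the other. Fitted over all dishes, its log2 fold change was -0.96 ± 0.22, 1.94-fold lower (adjusted p = 0.0327, edgeR). The call was lost without PD-L1 dish 1, PD-L1 dish 2 or Vector dish 3, with no low-count filter (adjusted p = 0.210, edgeR), and under the GC and length correction (-0.93, adjusted p = 0.0912, edgeR). SFRP4 was low, at 1.22, 1.05 and 1.02 CPM in PD-L1 dishes and 1.84, 1.22 and 1.02 CPM in Vector dishes, and did not pass (adjusted p = 0.533, edgeR).

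DKK3 (ENSG00000050165), a divergent Dickkopf protein that, unlike DKK1, is not a general blocker of LRP5 and LRP6, had the largest change of any tested Wnt gene. It had 31.2, 38.2 and 51.0 CPM in PD-L1 dishes, against 112, 73.7 and 75.5 CPM in Vector dishes. The order of dishes was like that of SFRP1, with Vector dish 1 highest and PD-L1 dish 3 the highest of its group. This was a log2 fold change of -1.12 ± 0.22, 2.17-fold lower, with an adjusted p of 0.0174 in edgeR. It was -1.34 without PD-L1 dish 3 (adjusted p = 0.0580, edgeR) and -1.09 without PD-L1 dish 2 (adjusted p = 0.155, edgeR), and the call was lost in both fits and with no low-count filter (adjusted p = 0.0944, edgeR). Without Vector dish 1 the fold change was -0.90 and the call held (adjusted p = 0.00851, edgeR).

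DKK1 (ENSG00000107984), the classical inhibitor that binds LRP5 and LRP6 and is itself a target of beta-catenin, had 23.9, 26.0 and 36.4 CPM in PD-L1 dishes, against 39.0, 43.0 and 34.0 CPM in Vector dishes. The groups overlapped through PD-L1 dish 3 and Vector dish 3. The log2 fold change of -0.43 ± 0.14 did not pass (adjusted p = 0.0803, edgeR). It passed without PD-L1 dish 3 (-0.64, adjusted p = 6.72e-05, edgeR) and in 4 further alternatives. Summed over the 4 Dickkopf genes, the level was 17.04, 19.3 and 26.6 CPM per kb in PD-L1 dishes, against 39.98, 34.1 and 30.5 CPM per kb in Vector dishes.

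**Figure D3:**
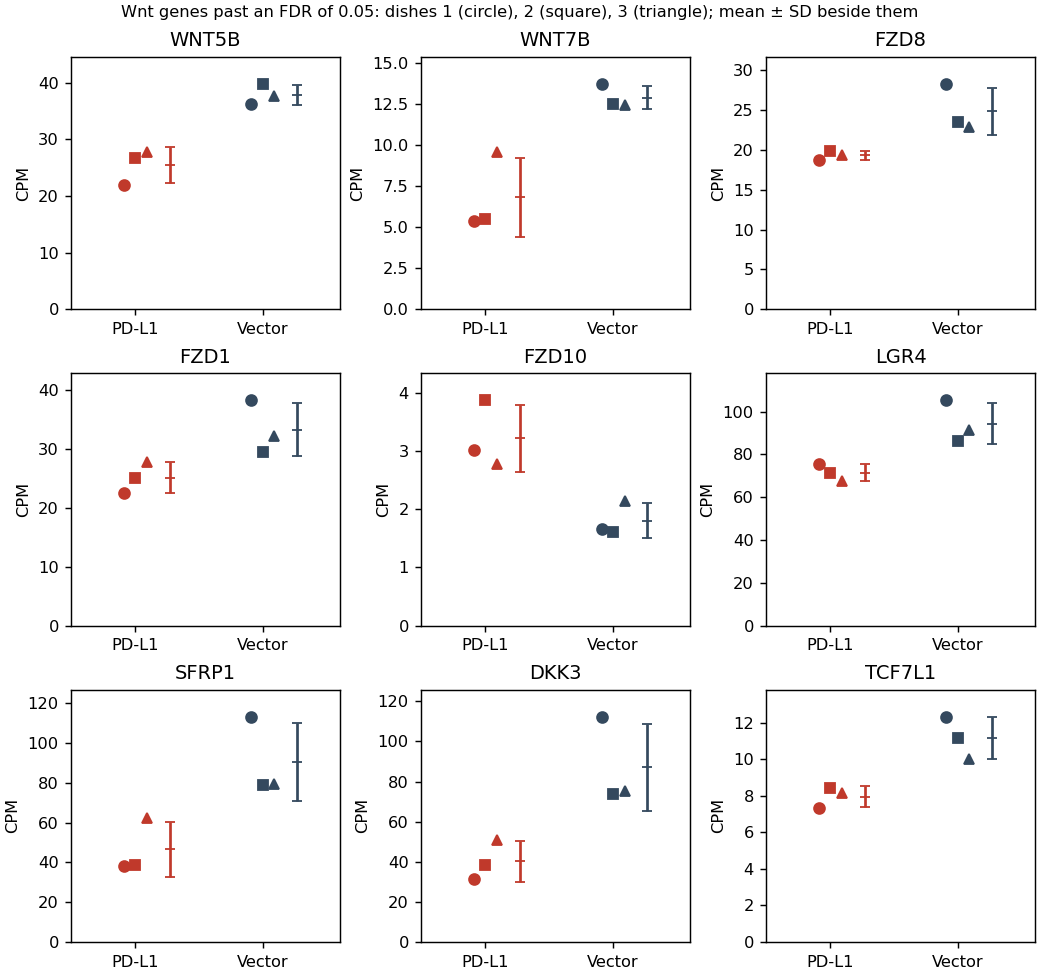
CPM per dish of the 9 Wnt genes with an FDR under 0.05, PD-L1 left and Vector right, with mean ± SD (n = 3 each). The groups do not overlap in any panel; PD-L1 dish 3 (triangle) is the PD-L1 dish nearest to the Vector dishes in 6 of the 9 panels (WNT5B, WNT7B, FZD1, FZD10, SFRP1 and DKK3).

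Promoter windows are printed for DKK1 and for the called genes WNT5B and FZD8, to place the TCF and LEF recognition letters beside the expression values. Among called genes with a window, only WNT5B and FZD8 held a match, to the TATA letters and not to the TCF letters. The windows of FZD1, TCF7L1 and LGR4 and the first window of WNT5B held none and are not printed. Each window holds 250 bases before and 50 bases after a RefSeq transcript start on build GRCh38.p14. Capitals mark the TCF letters and the TATA letters. The TCF letters searched were AACAAAG as the first form, ATCAAAG as the second form, TACAAAG as the third form and TTCAAAG as the last form. The TATA letters were TATAAA, and all were searched on both strands, so that a match on the other strand is printed as its reverse complement. No match overlapped another in these windows. The windows are chr10:52314031-52314330 (plus strand) for DKK1, chr12:1628981-1629280 (plus strand) for the second of 2 starts of WNT5B, and chr10:35642247-35642546 (minus strand) for FZD8.
DKK1: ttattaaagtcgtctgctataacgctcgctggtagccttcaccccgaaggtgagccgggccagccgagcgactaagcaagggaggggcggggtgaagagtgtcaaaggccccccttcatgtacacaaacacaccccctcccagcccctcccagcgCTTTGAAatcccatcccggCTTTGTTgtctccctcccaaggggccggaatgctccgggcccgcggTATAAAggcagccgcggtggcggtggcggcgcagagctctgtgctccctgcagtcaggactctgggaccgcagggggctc
WNT5B: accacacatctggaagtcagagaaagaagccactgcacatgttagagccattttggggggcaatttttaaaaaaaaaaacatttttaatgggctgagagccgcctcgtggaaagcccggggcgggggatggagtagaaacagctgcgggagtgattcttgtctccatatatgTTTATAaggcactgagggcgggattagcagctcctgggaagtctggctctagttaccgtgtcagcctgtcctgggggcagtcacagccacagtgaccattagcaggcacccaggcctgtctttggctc
FZD8: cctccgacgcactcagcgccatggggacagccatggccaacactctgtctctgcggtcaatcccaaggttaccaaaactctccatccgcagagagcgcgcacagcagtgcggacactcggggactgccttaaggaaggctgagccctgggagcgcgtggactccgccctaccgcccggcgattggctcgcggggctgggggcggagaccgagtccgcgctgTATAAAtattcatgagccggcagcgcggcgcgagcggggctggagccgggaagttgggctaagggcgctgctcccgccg

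DKK1 held the TCF letters at 2 places, starting 95 and 76 bases before the start, and the TATA letters 30 bases before it. FZD8 held the TATA letters 29 bases before its start, and WNT5B held them on the other strand, 78 bases before its second start. With TCF7, TCF7L2 and WNT3, DKK1 was one of the genes with TCF letters in a window, which were 4 of the 24 tested Wnt genes with a window. These 24 genes have 31 windows, of which 4, or 12.9%, held the TCF letters, beside 13.8% of all 35116 promoter windows. The TATA letters were also in 12.9% of the 31 windows, beside 11.5% of all windows, so neither share was far from the background. None of the 5 called genes with a window (WNT5B, FZD1, FZD8, TCF7L1 and LGR4) held the TCF letters in it. A match is a run of letters and was not tested as a binding site.

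Of the proteins inside the cell, AXIN1, the scaffold of the beta-catenin destruction complex, had 59.7, 67.4 and 69.2 CPM in PD-L1 dishes and 64.2, 60.1 and 63.2 CPM in Vector dishes. The groups overlapped, with a log2 fold change of 0.07 (95% interval -0.11 to 0.24). AXIN1 passed after the GC and length correction, at 0.25 (adjusted p = 0.0125, edgeR).

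Of the 5 feedback genes, AXIN2, NKD1, RNF43 and ZNRF3 are induced when beta-catenin signalling is active, and NKD2 was grouped with them. AXIN2, the most used readout of that branch, had 8.77, 9.04 and 9.30 CPM in PD-L1 dishes and 8.59, 7.42 and 8.98 CPM in Vector dishes. Its log2 fold change was 0.12, with a 95% interval of -0.15 to 0.39. ZNRF3, a ubiquitin ligase that removes Frizzled proteins and the most abundant feedback gene per kb, had 38.4, 41.7 and 38.7 CPM in PD-L1 dishes and 39.6, 36.6 and 41.9 CPM in Vector dishes, a log2 fold change of 0.01 (95% interval -0.17 to 0.19). Groups overlapped for both genes. RNF43, the partner ligase, had a log2 fold change of 0.13, and NKD1 and NKD2, which bind Dishevelled, had 0.20 and -0.02. None of the 5 feedback genes passed the edgeR test (adjusted p 0.464 to 0.965), and none passed in any of the 20 alternatives. None of the 5 reached an unadjusted p under 0.05 either. Over all 15818 tested genes, 8.75% passed the FDR and 3735 had an unadjusted p under 0.05. With only 5 genes, finding 0 does not set this group apart from those shares.

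Of the 4 TCF and LEF factors, TCF7L1 alone passed. TCF7L1 (ENSG00000152284), mostly a repressor of Wnt targets, had 7.31, 8.43 and 8.13 CPM in PD-L1 dishes, against 12.3, 11.2 and 10.0 CPM in Vector dishes. The groups did not overlap, and Vector dish 3 was nearest to the PD-L1 dishes. Fitted over all dishes, its log2 fold change was -0.49 ± 0.13, 1.41-fold lower (adjusted p = 0.0278, edgeR). Leaving out any 1 of PD-L1 dishes 1 and 2 and Vector dishes 1 and 2 ended the call, as did a fit with the GC and length correction (-0.35, adjusted p = 0.0532, edgeR). LEF1, the most abundant of the 4 per kb, had 20.02, 21.5 and 22.2 CPM in PD-L1 dishes and 22.1, 19.5 and 23.2 CPM in Vector dishes, with a log2 fold change of -0.02 (95% interval -0.23 to 0.19). TCF7 had 20.6, 20.2 and 23.37 CPM in PD-L1 dishes and 27.99, 23.43 and 25.5 CPM in Vector dishes, so that a narrow gap separated PD-L1 dish 3 and Vector dish 2. It did not pass with all dishes (-0.26, adjusted p = 0.131, edgeR) but did without PD-L1 dish 3 (-0.33, adjusted p = 0.0200, edgeR). TCF7L2, a main effector of beta-catenin, had a log2 fold change of -0.08 and overlapping groups.

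**Figure D4:**
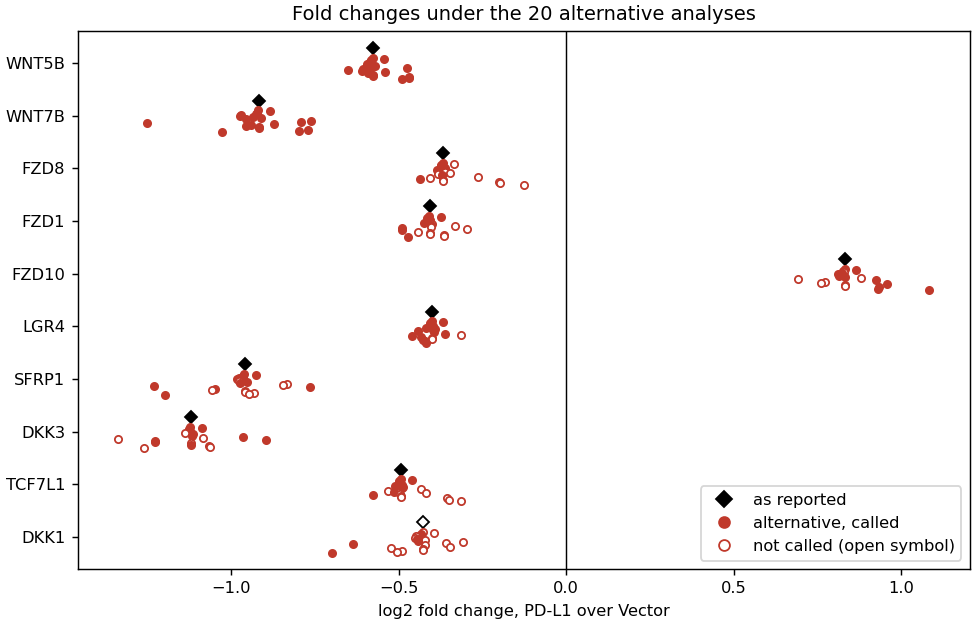
Log2 fold changes (PD-L1 over Vector) of the 9 called Wnt genes and DKK1 as reported (diamonds) and under up to 20 alternative analyses (circles; filled where called). WNT5B and WNT7B are filled throughout, and no circle crosses 0.

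Other genes of the pathway were read in 8 lists that hold 95 genes in all, 85 of them tested. Of these, 16 fell and 0 rose, or 18.8%, beside 8.75% of all tested genes called in either direction and 7.20% lower. Their median log2 fold change was -0.08, beside 0.02 over all genes. Most of the lower genes were in the list of widely used targets of beta-catenin and TCF, where 9 of 17 tested genes fell, 0 rose, and the median was -0.61. This list includes CCND1 and CD44, whose decreases were known when it was drawn up, and its genes also answer to other pathways. CD44 and SOX9 are also in the U251 identity list, so their decreases are counted in both lists.

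CD44, the hyaluronan receptor, had 184, 209 and 230 CPM in PD-L1 dishes, against 458, 379 and 411 CPM in Vector dishes. JAG1, a Notch ligand, had 42.9, 49.9 and 48.4 CPM in PD-L1 dishes, against 95.9, 75.5 and 86.0 CPM in Vector dishes (log2 fold change -0.87 ± 0.10, adjusted p = 1.72e-04, edgeR). EPHB2, a receptor of ephrins, had 37.2, 44.4 and 47.2 CPM in PD-L1 dishes, against 82.5, 73.3 and 75.0 CPM in Vector dishes. CCND1, the G1 cyclin D1, had 89.5, 100.5 and 119.7 CPM in PD-L1 dishes, against 189, 186 and 167 CPM in Vector dishes. In none of these 4 genes did a PD-L1 dish reach a Vector dish. The other 5 lower genes were SOX9, VCAN, FOSL1, EPHB3 and TNFRSF19. MYC, another familiar target, had 107, 115 and 117 CPM in PD-L1 dishes and 115, 102 and 116 CPM in Vector dishes and did not pass (log2 fold change 0.03, adjusted p = 0.882, edgeR). The count of lower targets was 7 to 11 when 1 dish was left out, in fits that called 3.37% to 21.6% of all genes. It was 8 without PD-L1 dish 3, where 21.6% of all genes were called. The 11 came without Vector dish 2, where 7.19% were called.

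The destruction complex and Dishevelled list had 1 of 19 genes lower, or 5.26%, which is below the 7.20% of all tested genes, and 0 higher. DVL3, one of the Dishevelled proteins that relay the signal from Frizzled, had 127, 141 and 143 CPM in PD-L1 dishes, against 192, 160 and 174 CPM in Vector dishes (log2 fold change -0.36 ± 0.08, adjusted p = 0.0170, edgeR). CTNNB1, which encodes beta-catenin itself, had 555, 540 and 537 CPM in PD-L1 dishes and 525, 570 and 547 CPM in Vector dishes, with overlap and a log2 fold change of -0.01. The DVL3 call was lost without PD-L1 dish 1 or Vector dish 1. Without PD-L1 dish 3 the list had 2 higher genes (APC and TNKS2) and 3 lower (DVL1, DVL3 and GSK3A) of 19. In that fit 21.6% of all genes were called.

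In the list of 14 nuclear genes 3 fell, or 21.4% beside 7.20% of all tested genes, and 0 rose. BCL9L, a coactivator that bridges beta-catenin to Pygopus proteins, had 29.6, 37.8 and 34.6 CPM in PD-L1 dishes, against 63.5, 52.2 and 54.6 CPM in Vector dishes. This was a log2 fold change of -0.74 ± 0.10, 1.67-fold lower (adjusted p = 7.33e-04, edgeR), and it passed whichever dish was left out. The corepressor TLE2 and TCF3 also fell, by 0.59 and 0.30 on the log2 scale (adjusted p = 0.0488 and 0.0383, edgeR). For TLE2 the groups overlapped, with PD-L1 dish 3 at 11.07 CPM and Vector dish 2 at 10.74 CPM. TCF3 encodes the E2A helix-loop-helix protein, which is not a TCF of the Wnt pathway, although the list holds it. Its decrease is still counted in the 3 of 14 here and in the 16 of 85 over all lists, so both shares include it. In the 4 fits that left out PD-L1 dish 1 or 2, or else Vector dish 1 or 3, BCL9L alone passed. Those fits called 3.37% to 5.94% of all genes.

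In the planar cell polarity and calcium list 2 of 19 genes fell, or 10.5%, near the 7.20% of all tested genes, and 0 rose. CAMK2D, a calcium-dependent kinase, had 28.3, 32.1 and 30.6 CPM in PD-L1 dishes, against 41.6, 38.9 and 39.4 CPM in Vector dishes, and PRICKLE2, a polarity protein, had 4.34, 4.61 and 4.92 CPM in PD-L1 dishes, against 7.81, 5.86 and 6.45 CPM in Vector dishes. Both sets of dishes stood apart. The count was 0 without PD-L1 dish 1 or Vector dish 1, in fits that called 3.98% and 3.37% of all genes. Without PD-L1 dish 3 it was 1 higher with 5 lower of 19 genes, in a fit that called 21.6% of all genes. Other Wnt receptors and other secreted inhibitors had 0 genes called in either direction, of 6 and 3 tested. PTK7, the most abundant of those receptors, had a log2 fold change of -0.21 (adjusted p = 0.161, edgeR), and RYK, a Wnt receptor related to tyrosine kinases, had 0.04 (adjusted p = 0.808, edgeR). PTK7 passed without PD-L1 dish 3, and KREMEN1, a DKK1 receptor, passed as higher under the GC and length correction. IGFBP4, a binding protein of insulin-like growth factors that also inhibits Wnt signalling, led the inhibitors. It had 101, 104 and 171 CPM in PD-L1 dishes, against 256, 200 and 198 CPM in Vector dishes, without overlap, and a log2 fold change of -0.80 that narrowly did not pass (adjusted p = 0.0578, edgeR). It passed in 11 of 20 alternatives, among them limma-voom, the fit without PD-L1 dish 3 and the GC and length correction. APCDD1, a membrane inhibitor of the pathway, had a log2 fold change of -0.20 and overlapping groups.

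**Figure D5:**
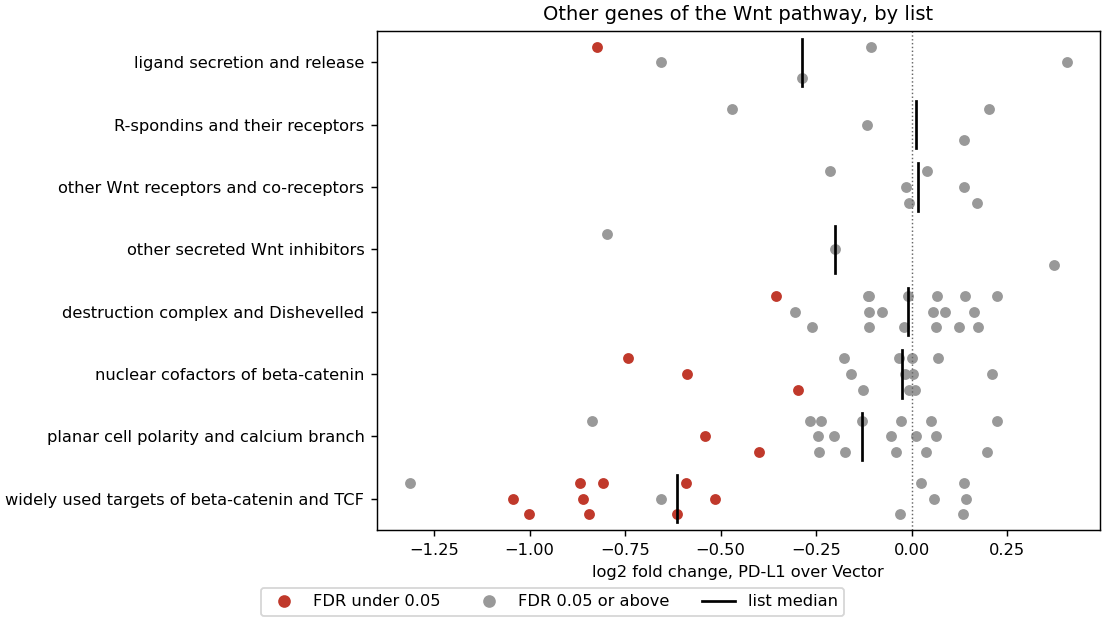
Log2 fold changes (PD-L1 over Vector) of the tested genes in 8 lists of the Wnt pathway; red points have an FDR under 0.05, and the black bar is the list median. The target list has 9 red points and a median of -0.61, and no list has a red point right of 0.

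Counts of a few Wnt genes could include reads of neighbours. The library kit does not mark strand, and in GENCODE 29 exons of 10 tested Wnt genes overlap a gene on the opposite strand, among them WNT2B with ST7L, FZD4 with PRSS23, TCF7 with SKP1 and DKK1 with PRKG1-AS1. None of the 9 called genes has such an overlap. On their own strand, AXIN2 and RNF43 share exons with annotated genes, and the called gene FZD8 shares 81 bases with the microRNA gene MIR4683.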

How the data were processed

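RNA-seq counts of 6 dishes were analysed. CASAVA 1.8, STAR 2.5.1b, HTSeq 0.6.0 and build hg19 are named in the submitters' processing notes, which give no role for them. Which annotation and strand setting were used is not given in the sources used here. Raw read counts for each Ensembl gene, as whole numbers, were deposited by the authors. They also deposited a normalized signal, which equals the count divided by 1 factor per dish (largest deviation 4e-05 counts).

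Symbols came from a gene name table (51996 IDs) and GENCODE 29 (342 more), and 5435 IDs had none. GENCODE 29 also gave exon length, GC content and overlaps, and no coordinates of the files were used. Promoter windows came from RefSeq on GRCh38.p14, which 35 of the 51 genes matched.

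edgeR 4.0.16, run in R 4.3.3, fitted the comparison over the 6 dishes (filterByExpr, TMM, robust quasi-likelihood F test, no covariates). Benjamini-Hochberg FDR under 0.05 over 15818 genes counted as changed. Positive log2 fold changes mean higher in PD-L1, with standard errors and 95% intervals derived from the F statistic and its degrees of freedom. CPM per kb divides CPM by the exon length. Alternatives were other scalings, DESeq2 1.42.0, limma 3.58.1 (voom, and trend on log2(normalized count + 1)), other filters and thresholds, a replicate block, a GC and length correction by an offset (natural splines, 5 degrees of freedom) and leaving out each dish. Combining the correction with the block, or with PD-L1 dish 3 left out, was chosen after seeing the data. The fit was tested on simulated data. Figures were made with Python 3.11.15 and matplotlib 3.10.9.

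Genes named were members, with those called in some setting among them, and in each pathway list at most 4 called genes of lowest FDR. In a list with no call they were the 2 of highest mean CPM. WLS, CTNNB1 and MYC were named outside this rule. The remaining lower targets and genes called when a dish was left out were chosen after their values were seen. The members and lists were chosen with earlier results of these data known. PECAM1 had no matching ID.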

Additional observations from a re-analysis of the deposited data

How the results depend on the processing

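WNT5B and WNT7B were called lower in all 20 alternatives, and no called Wnt gene changed sign in any of them. LGR4 was called in 17 of 20, DKK3 in 14, FZD1 and SFRP1 in 12 each, TCF7L1 in 11 and FZD8 in 9. FZD10 was called in 12 of 19. Among uncalled Wnt genes, 9 changed sign in at least 1 alternative (FZD6, FZD9, LRP5, LRP6, LEF1, TCF7L2, NKD2, ZNRF3 and ROR2). The total of 1384 changed genes was 530 at an FDR of 0.01, 443 beyond 1.2-fold, 3404 with the GC and length correction without PD-L1 dish 3, and 545 to 3512 when 1 dish was left out. It was 82.3% lower genes, but 72.8% with upper-quartile scaling, 61.6% with the correction, 73.8% with the correction and replicate block, 54.0% with the correction without PD-L1 dish 3, and 63.8% (without PD-L1 dish 3) to 93.6% (without Vector dish 1) when 1 dish was left out. It was 95.9% or 95.7% at an FDR of 0.01 or beyond 1.2-fold. The Wnt genes lower numbered 8, but 2 at an FDR of 0.01, 3 beyond 1.2-fold, 5 with the correction, 3 with the correction and replicate block, and 3 to 10 when 1 dish was left out. The Wnt genes higher numbered 1, but 0 with DESeq2, at a mean of at least 5 CPM, at an FDR of 0.01 or beyond 1.2-fold, 2 with the correction, 2 with the correction and replicate block, 4 with the correction without PD-L1 dish 3, and 0 to 1 when 1 dish was left out. The stricter thresholds, fewer genes or fewer dishes are part of those alternatives; for the others the cause was not tested. Called in either direction were 5.26% of tested Wnt genes beside 3.35% of all genes at an FDR of 0.01. These shares were 7.89% beside 2.8% beyond 1.2-fold, and 13.2% beside 8.27% with the correction and replicate block. With the correction without PD-L1 dish 3 they were 26.3% beside 21.5%. Without Vector dish 2 or 3 they were 15.8% beside 7.19% and 18.4% beside 5.94%. With the replicate block alone 1447 genes changed, with 8 Wnt genes lower and 1 higher, DKK1 gained and FZD8 lost. Dishes with the same number did not deviate together (correlations -0.21, -0.05 and -0.19; no dish correlated best with its own number), so the numbers were not taken to pair dishes. Among the tested Wnt genes, WNT6, SFRP4 and WNT3A had 17 to 53 counts per dish and standard errors of 0.34, 0.29 and 0.26 on the log2 scale.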
